A study of Mus musculus with 2 samples.

Results

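Intermediate filament mRNAs were compared between total homogenate and a synaptosome-enriched fraction of mouse brain. The 7 genes were chosen by name from 23329 genes in the deposited files: Gfap, Vim and Nes, which encode filament proteins of glia and progenitor cells, and Nefl, Nefm, Nefh and Ina, which encode filament proteins of neurons. Every row of the transcript files whose gene symbol is 1 of these names was used. This gave 8 transcripts, 2 for Gfap and 1 for each of the other 6 genes. Both libraries came from C57BL/6 mice of wild-type genotype with no treatment named, and the labels give the tissue as whole brain. Both sample titles also carry CT10, which the labels do not explain and which is not interpreted here. The homogenate library was made from RNA of the total homogenate. The synaptosome library was made from the layer between 3% and 10% Percoll of a density gradient, a fraction enriched in pinched-off nerve endings that can also carry glial membranes. The labels do not give the age, the sex or the number of mice behind a library.

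There was 1 library per fraction, of 15210857 (homogenate) and 13709539 (synaptosome) estimated counts. Ratios therefore compare these 2 libraries and no others, and no p-value is given. Intervals are 95% intervals for counting error only, and errors in dividing reads among transcripts, PCR copies and differences between animals lie outside them. In such fractions, fewer cells or cell fragments of a type and less RNA in each of them cannot be told apart.

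Intermediate filaments are rope-like cytoskeletal polymers built from proteins with a shared coiled-coil rod and with differing heads and tails. Astrocytes build theirs mainly from glial fibrillary acidic protein, the product of Gfap, together with vimentin, the product of Vim, while nestin, the product of Nes, marks neural stem and progenitor cells. Neurons build neurofilaments from the light, medium and heavy chains, the products of Nefl, Nefm and Nefh, together with alpha-internexin, the product of Ina. Neurofilaments fill axons and help set their calibre, and the long tails of the medium and heavy chains project from the filament.

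Gfap was the member with 2 listed forms, which share their first 7 exons and end differently. NM_010277 is the common alpha form, with 2 last exons of its own. NM_001131020 has the structure of the delta form, with 1 last exon of its own that replaces those 2. The count of each form rests on the part that the other form lacks.

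Gfap mRNA was several-fold higher in synaptosome RNA, Nefm mRNA was lower, and the other 5 filament mRNAs lay between. The rule for a call was a ratio of 2-fold or more with an interval that excluded 1. Ratios were scaled by TMM, which sets them relative to the typical gene. By this rule 1 of 7 members was higher (Gfap) and 1 was lower (Nefm), with Ina lower too under library totals. Among all 14153 genes that averaged 1 CPM or more (CPM being the count scaled to library size), 12.8% were higher and 9.1% lower, so the counts of members were near the background in each direction. The split of all genes depended on the scaling, with 636 higher and 3629 lower under library totals, where the median of all genes was -0.51. All 7 members passed that minimum. Their median log2 ratio was -0.31, against -0.01 for all genes.

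**Figure D1:**
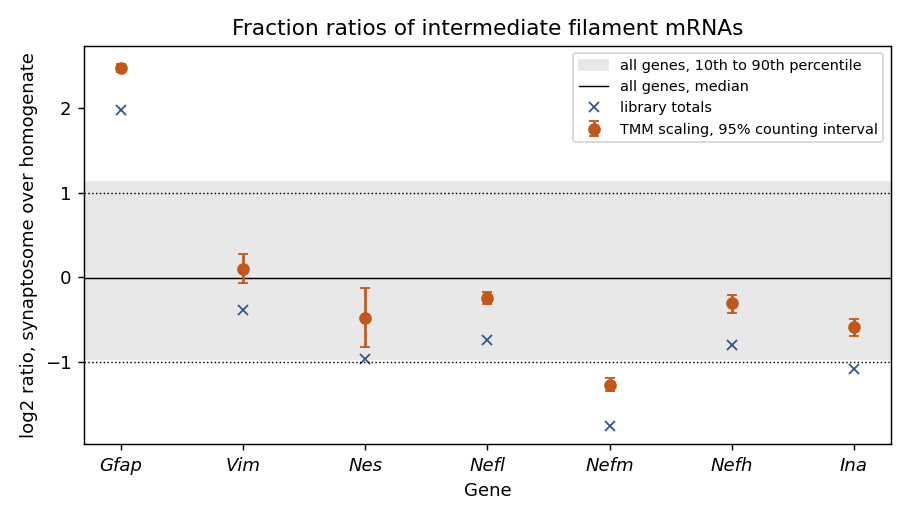
Points give the log2 ratio of synaptosome to homogenate RNA for each gene under TMM scaling with its 95% counting interval, crosses give the ratio under library totals, the grey band spans the 10th to 90th percentile of all genes (-0.97 to 1.12) and dotted lines mark 2-fold. Gfap at 2.47 lies far above the band, Nefm at -1.27 lies below it, and the other 5 genes lie inside it under TMM scaling.

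The glial members differed widely from each other. Gfap (chromosome 11, 102887336 to 102897200) had 3790 counts in homogenate RNA and 13444 in synaptosome RNA. Scaled to CPM, these were 210.0 and 1163. Gfap was 5.54-fold higher in synaptosome RNA (5.34 to 5.74), and only 37 of 14153 genes had a higher ratio. Genes of like abundance, within 2-fold of its mean CPM, had a median log2 ratio of 0.83, and 0.42% of those 476 genes lay above Gfap.

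Vim (chromosome 2, 13574311 to 13582826) had 734 counts in homogenate RNA and 504 in synaptosome RNA, or 40.7 and 43.6 CPM after scaling. Its ratio was 1.07 (0.955 to 1.2), and the interval included 1. The direction depended on the scaling: the log2 ratio was 0.10 under TMM and -0.39 under library totals, which moved every log2 ratio by -0.49. Nes (chromosome 3, 87971093 to 87980451) was the rarest member, with 220 and 101 counts, or 12.2 and 8.74 CPM. It was 1.39-fold lower in synaptosome RNA (1.10 to 1.78) and did not reach the 2-fold mark. Set against each other, which needs no scaling, the ratio of Gfap exceeded that of Vim by 5.17-fold (4.59 to 5.82) and that of Nes by 7.73-fold (6.09 to 9.81).

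All 4 neuronal members had log2 ratios below 0, and their median was -0.45. The sum of Nefh with all counts of a partly overlapping gene, Ap1b1, was at 0.10, which is not a ratio of Nefh alone. Nefl (chromosome 14, 68083884 to 68087737), the light chain and the subunit on which neurofilament assembly depends, had 4734 counts in homogenate RNA and 2552 in synaptosome RNA. It was 1.19-fold lower (1.13 to 1.25), within the 2-fold mark. Nefh (chromosome 11, 4938756 to 4948064), the heavy chain, had 2197 and 1132 counts and was 1.24-fold lower (1.16 to 1.34). Light and heavy chain ratios differed from each other by 1.05-fold (0.960 to 1.14), which is within counting error.

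Nefm (chromosome 14, 68119545 to 68125004), the medium chain, had 5726 counts in the homogenate, the most of any member there, and 1522 in synaptosome RNA. In CPM these were 317.3 and 131.7. It was 2.41-fold lower (2.28 to 2.55). Its log2 ratio of -1.27 stood at percentile 5.20 of all genes, and 98.3% of 1573 genes of like abundance had a higher ratio. Relative to Nefl, Nefm was 2.03-fold lower in synaptosome RNA than in the homogenate (1.88 to 2.18), and relative to Nefh it was 1.94-fold lower (1.77 to 2.12). Nefl and Nefm are neighbours on chromosome 14, on opposite strands, with 31807 bases between them.

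Ina (chromosome 19, 47014698 to 47024346), alpha-internexin, had 2287 and 970 counts and was 1.51-fold lower (1.40 to 1.63). It lay between Nefm and the other chains: its ratio was 1.60-fold above that of Nefm (1.45 to 1.75) and 1.27-fold below that of Nefl (1.16 to 1.39). Under library totals its log2 ratio was -1.09, past the 2-fold mark. Of 21 pairs of members, 17 had ratios that differed by more than counting error. The other 4 pairs were Nefl with Nefh, and Nes with each of Nefl, Nefh and Ina.

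**Figure D2:**
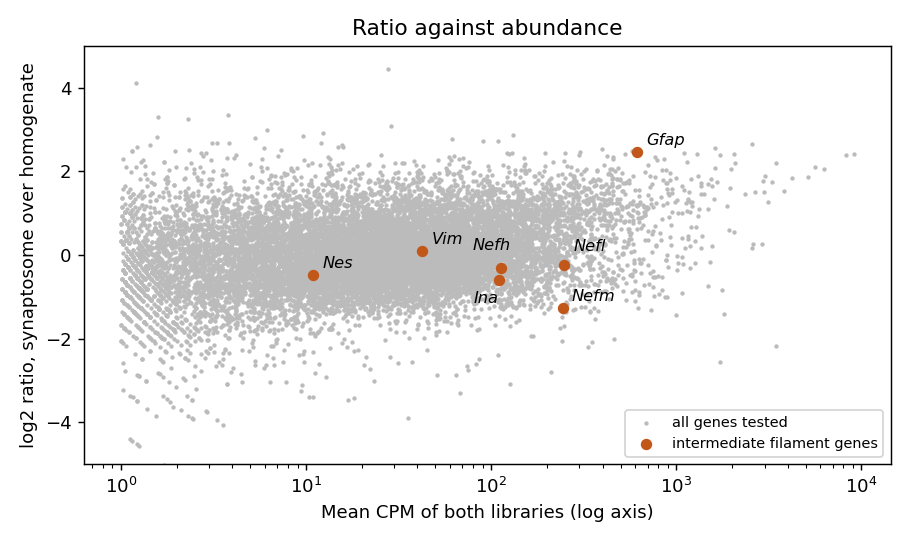
Each grey point is 1 of 14153 genes, with mean CPM of both libraries on a log axis and the TMM-scaled log2 ratio, synaptosome over homogenate, on the other (9 genes lie outside the plotted range), and orange points are the 7 filament genes. Nefl and Nefm have nearly the same abundance and sit at -0.25 and -1.27, while Gfap lies at the upper edge of the cloud.

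Abundant genes tended to have higher ratios, and the neuronal members lay low against that trend. The most abundant quintile of genes, above 80.7 CPM, had a median log2 ratio of 0.37, and it held Gfap and all 4 neuronal members. Among genes of like abundance, 76.5% had a higher ratio than Nefl, 75.9% a higher one than Nefh and 86.6% a higher one than Ina. For Vim the share was 43.9% and for Nes 69.0%. Nes, the longest transcript of the set at 6126 bases, was in the longest quintile of genes, whose median was 0.05.

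**Figure D3:**
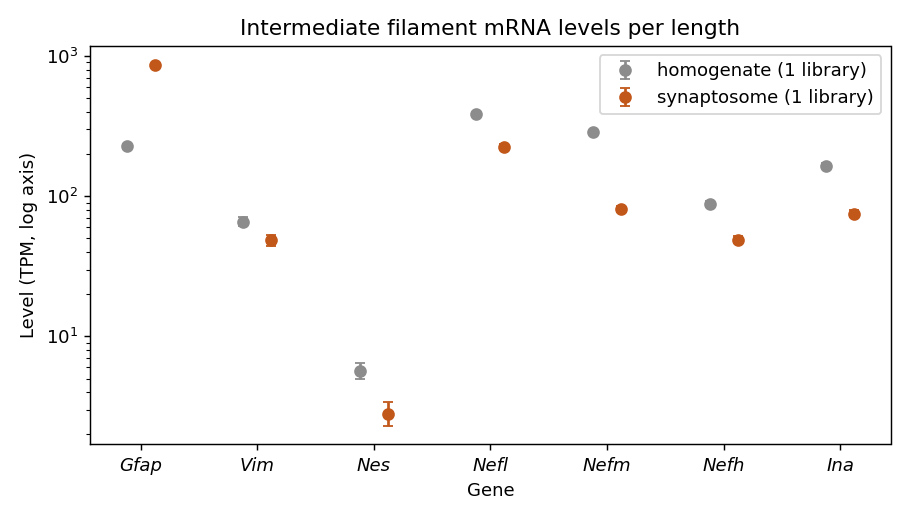
Level of each filament mRNA per length, in TPM on a log axis, in the homogenate library (grey) and the synaptosome library (orange), with 95% counting intervals that are smaller than the point where no bar shows. Gfap is the member above its homogenate level, at 862.6 against 226.5 TPM, and the other 6 lie below theirs on this scale, including Vim, whose ratio is 1.07 under TMM.

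Levels of different genes were compared per length, in TPM as deposited, which sums to the same total in each library. In the homogenate the order was Nefl at 388.1 TPM, Nefm at 285.3, Gfap at 226.5, Ina at 165.1, Nefh at 88.1, Vim at 65.96 and Nes at 5.70, and no neighbours in that order had overlapping counting intervals. In the synaptosome fraction it was Gfap at 862.6 TPM, Nefl at 224.9, Nefm at 81.5, Ina at 75.3, Nefh at 48.8, Vim at 48.7 and Nes at 2.81. There the intervals of Nefm and Ina overlapped, and so did those of Nefh and Vim. Gfap moved from the third place to the first, and the other 6 stood in the same order in both libraries. Among all genes ranked by TPM, Gfap was at place 797 in homogenate RNA and at place 174 in synaptosome RNA.

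Filament mRNA was mostly neuronal in homogenate RNA and mostly glial in synaptosome RNA. The 4 neuronal genes summed to 926.7 TPM in homogenate RNA and 430.5 in synaptosome RNA, while the 3 glial genes summed to 298.2 and 914.1. Glial mRNA thus made up 24.3% of the TPM of the 7 genes in homogenate RNA and 68.0% in synaptosome RNA. Of the glial genes, Gfap alone was higher on this scale: Vim and Nes together were 71.7 TPM in homogenate RNA and 51.5 in synaptosome RNA. The larger glial share also reflects the lower neuronal sum. Per Vim transcript there were 3.43 Gfap transcripts in homogenate RNA and 17.7 in synaptosome RNA.

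**Figure D4:**
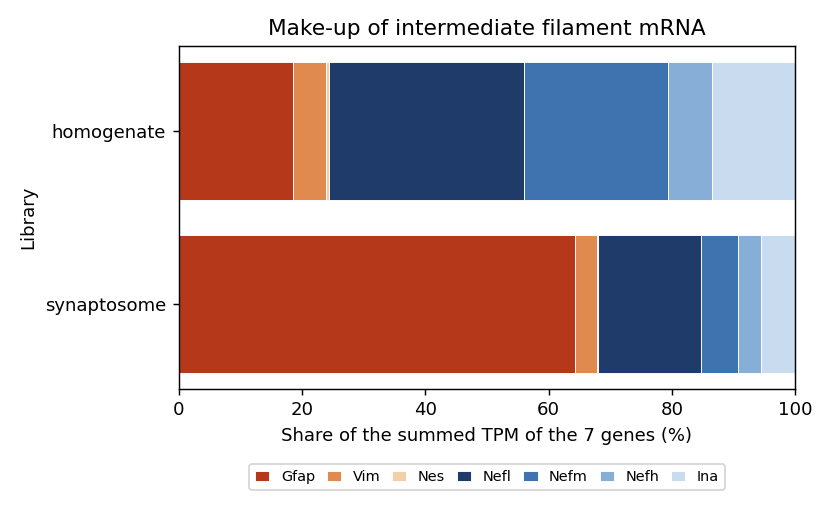
Each bar splits the summed TPM of the 7 genes in 1 library into shares in percent, glial genes in orange shades and neuronal genes in blue shades. Gfap takes 18.5% of the homogenate bar and 64.2% of the synaptosome bar.

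Within the neuronal set the light chain had a larger share in synaptosome RNA and the medium chain a smaller one. Nefl made up 41.9% of the TPM of the 4 neuronal genes in homogenate RNA and 52.2% in synaptosome RNA. Nefm made up 30.8% and 18.9%. Ina held nearly the same share, 17.8% and 17.5%, and Nefh had 9.50% and 11.3%. Light chain transcripts outnumbered medium chain transcripts 1.36 to 1 in homogenate RNA and 2.76 to 1 in synaptosome RNA, whereas light over heavy was 4.41 and 4.61.

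Of the Gfap forms, both were higher in synaptosome RNA, the alpha form more so. NM_010277 had 3549 counts in homogenate RNA and 12966 in synaptosome RNA and was 5.70-fold higher (5.50 to 5.92). NM_001131020 had 241 and 479 counts and was 3.10-fold higher (2.65 to 3.64). The rarer form made up 6.37% of Gfap counts in the homogenate (exact binomial interval 5.60 to 7.18) and 3.56% in synaptosome RNA (3.26 to 3.89). Relative to NM_010277 it was 1.84-fold lower in synaptosome RNA (1.57 to 2.16). A move of this size was common. The background was 1163 genes with 2 listed transcripts and at least 10 counts of each in both libraries. In 56.8% the form ratio moved by at least 1.5-fold beyond counting error, and in 24.2% it was the rarer form that was lower. A move as large as that of Gfap, whatever its interval, was seen in 44.1%, and with the rarer form lower in 19.1%. The 2 Gfap counts are estimates that share 1245 exon bases, and only 1472 bases of NM_010277 and 1355 of NM_001131020 are their own.

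**Figure D5:**
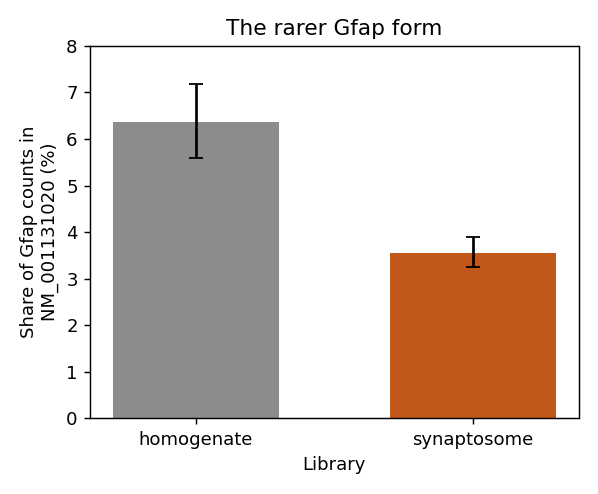
Bars give the share of Gfap counts assigned to NM_001131020, in percent, in each library, with exact 95% binomial intervals for counting error. The share is 6.37% in homogenate RNA and 3.56% in synaptosome RNA, and the intervals do not overlap.

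For 3 neuronal members, exons of a gene on the opposite strand overlap their own. The kit was stranded, per the labels' protocols, so the reads carry strand. Whether counting used it is not stated in the labels or notes, so reads from the overlap may have been counted for either gene. A230070E04Rik, a noncoding RNA that overlaps 1077 of 3230 exon bases of Nefm, had 179.9 counts in homogenate RNA and 74.0 in synaptosome RNA, or 3.14% and 4.86% of the counts of Nefm. Each member was also summed with all counts of its overlapping gene, an alternative added once the data had been seen. Summed in this way, Nefm was 2.37-fold lower (2.24 to 2.51). Ap1b1, an adaptor protein subunit, overlaps 425 of 3992 exon bases of Nefh and was 1.25-fold higher (1.19 to 1.32), with a log2 ratio of 0.33 that was -0.17 under library totals. Its counts were 143% of those of Nefh in homogenate RNA and 223% in synaptosome RNA. Nefh was 1.24-fold lower, and its sum with Ap1b1 was 1.07-fold higher (1.03 to 1.12). Nt5c2, a nucleotidase, overlaps 492 of 2259 exon bases of Ina and had a ratio near 1, at 1.02-fold lower (0.923 to 1.12). Its counts were 48.9% and 72.8% of those of Ina, and the sum of both genes was 1.3-fold lower (1.23 to 1.38). The sums take in all counts of the other gene, also those from outside the overlap. They therefore cannot show whether the direction of Nefh itself depends on which gene the overlap reads belong to. Nefm and Ina stayed lower in their sums.

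Most other intermediate filament genes were below the minimum level, and few of the rest were called by the rule. Of 60 further filament-family genes other than lamins, 15 passed the minimum of 1 CPM, among them 9 of 52 keratins. None of the 15 was higher by the rule and 2 were lower. The shares over all genes were 12.8% and 9.1%, so counts this small lie near the background. Their median log2 ratio was -0.85 (all genes: -0.01). Synm, synemin, a partner of vimentin and of Gfap protein in astrocyte filaments, had the highest ratio at 1.62-fold (1.45 to 1.81). Iffo1, a filament-family protein of the nucleus, was 2.05-fold lower (1.82 to 2.32), and Krt73, a keratin read from 38 and 5 counts, was 4.87-fold lower (1.91 to 15.8). The 3 lamins, which line the nucleus, had a median of -0.73 and none passed the rule. Lmna was 1.71-fold lower (1.44 to 2.04) and Lmnb2 1.66-fold lower (1.35 to 2.04).

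Genes that link, fold or carry filaments were mixed. Beside their counts stand the shares over all genes, 12.8% higher and 9.1% lower. Of 10 linkers and chaperones, 8 were measured, with a single gene higher and another lower, and the median was 0.34, or -0.15 under library totals. Dst, dystonin, a giant linker between filaments and microtubules, was 2.21-fold higher (2.14 to 2.28; log2 ratio 0.65 and short of the 2-fold mark under library totals), and Macf1, a related linker, was 1.58-fold higher (1.53 to 1.64). Hspb1, a small heat shock protein, was 4.95-fold lower, from 85 and 11 counts (2.63 to 10.3). Of 8 motors and kinases that act on neurofilaments, 3 were higher and none lower, and the median was 0.44, or -0.05 under library totals. The 3 were the kinesin heavy chains Kif5a, Kif5b and Kif5c, which carry axonal cargo that includes neurofilaments, at 5.23-fold, 3.93-fold and 3.24-fold. The neuronal members thus lay below 0 in libraries where Kif5a was at 2.39, though the sum of Nefh with all Ap1b1 counts did not.

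Markers of the cells that make each filament also differed between the libraries. By the same rule, 12.8% of all genes were higher and 9.1% lower. All 11 astrocyte markers were measured and 9 of them passed the 2-fold rule as higher. The 11 had a median log2 ratio of 2.12 (1.62 under library totals) and summed to 6390 CPM in homogenate RNA and 28800 in synaptosome RNA. Gfap at 2.47 exceeded 10 of them, and Ndrg2 at 2.66 was above it. Of 8 neuronal markers none was higher and 3 were lower, with a median of -0.88 (-1.37 under library totals) and sums of 6920 and 5490 CPM. Snap25 was at -1.42 and Syt1 at 0.56, on either side of the neurofilament genes. Endothelial markers, which bear on Vim since vessels make vimentin, had 8 of 10 lower, a median of -2.78 (-3.27 under library totals) and sums of 212 and 35.9 CPM. Mural cell and fibroblast markers, cells that make vimentin too, had 2 of 11 higher and 4 lower, with sums of 133 and 165 CPM. Their median was -0.19 (-0.69 under library totals), but the list held opposite groups. The mural genes Pdgfrb, Tagln, Rgs5, Myh11, Acta2 and Kcnj8 lay from -0.19 down to -3.38. The fibroblast genes Dcn, Lum, Col1a1, Col1a2 and Col3a1 lay from 0.60 up to 1.18. Of 7 progenitor markers, which bear on Nes, 3 were higher and 1 lower. Their median was -0.42 (-0.91 under library totals) and their sums were 144 and 245 CPM. Those higher were Fabp7 at 2.11, Sox2 at 1.10 and Hes5 at 1.04, all also made by astrocytes. The proliferation marker Mki67 was lower at -1.64, and Dcx at -0.92, Prom1 at -0.81 and Sox11 at -0.42 did not reach the 2-fold mark. Of 5 measured ependymal markers none was higher and 3 were lower. Of 5 microglial markers 3 were higher and none lower, with a median of 1.16 (0.67 under library totals) and sums of 157 and 315 CPM. Of 5 oligodendrocyte markers 2 were higher and none lower, with a median of 0.34 (-0.15 under library totals) and sums of 6870 and 22400 CPM. The 2 were the myelin genes Mbp at 2.41, close to Gfap at 2.47, and Mobp at 1.79, while Cnp was at 0.34 and Mog at -0.16. The numbers of markers called depend on the scaling, since library totals move every log2 ratio by -0.49. Markers only a little past the 2-fold mark as higher fall short of it there, such as Sox2 at 0.61 and Col1a2 at 0.68. Those just short of the mark on the lower side pass it there. No marker on these 8 lists was at 0 counts in both libraries. The part of these cell types in the filament ratios was not tested.

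The genes nearest to Gfap in log2 ratio, among 468 named genes within 2-fold of its mean CPM, were Bcas1 at 2.48, Fam107a at 2.45 and Sfxn5 at 2.42. This likeness is over 2 libraries only. For Vim, Nefl and Nefh many genes had nearly the same ratio: Akap12, Fubp3 and Pid1 lay at 0.10 with Vim, Efr3a, Wdr82 and Anp32a at -0.25 with Nefl, and Fam57b, Ranbp9 and Ube2e1 at -0.31 with Nefh.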

How the data were processed

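RNA of a homogenate and of a synaptosome fraction of mouse brain was sequenced as 100-base reads from a stranded mRNA kit, per the labels' protocols. The authors deposited estimated counts and TPM for 30383 RefSeq transcripts per library and a gene table of signal values. The notes name mm10 and 4 tools, RSEM 1.2.5, TopHat 1.3.3, edgeR 3.0.6 and FastQC, per the submitters' processing notes, without roles or settings. The deposited expected counts were fractional for some transcripts. TPM, as deposited, corrects for transcript length and removes depth. The deposited signal was, for the median gene among those with 100 counts or more, the summed count times 0.7983 in homogenate RNA and 1.2527 in synaptosome RNA.

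Here, counts were summed per gene symbol and rounded, and scaled with TMM (edgeR 4.0.16, R 4.3.3; factors 1.1863 and 0.8429). Genes averaging 1 CPM or more, on library totals, were kept. Ratios carry exact 95% Clopper-Pearson intervals. Ratios between 2 members or forms carry Wald intervals of the log odds ratio, and levels carry exact Poisson intervals. Calculations used Python 3.11.15, numpy 2.4.6, scipy 1.17.1 and pandas 2.3.3, with DESeq2 1.42.0 for 1 alternative scaling, and were tested on simulated data. The members and lists were chosen with earlier results of these data known. Genes named beyond the members followed a fixed rule: in each partner list the 2 most abundant members and those past the 2-fold rule, and, for Gfap, Vim, Nefl and Nefh, the 3 genes nearest in ratio within 2-fold of the mean CPM, and the 2 most abundant of each marker list. Other markers, and the overlapping genes, were named after their values were seen. Sequences of the Gfap forms are not reported here.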

Additional observations from a re-analysis of the deposited data

How the results depend on the processing

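Gfap was called higher and Nefm lower under all 8 alternatives run: library totals, DESeq2 size factors, upper quartile factors, TPM, the deposited signal, no low-count filter, a minimum of 10 CPM and a 1.5-fold rule. The changed filters and the 1.5-fold rule left both ratios as they were, so they could not undo the calls of members this abundant. The deposited signal follows the same counts, so it is no separate measure. The log2 ratio ranged from 1.93 to 2.50 for Gfap and, with the opposite-strand gene added as a ninth, from -1.81 to -1.24 for Nefm. Vim was reversed under library totals (-0.39) and TPM (-0.44). The sum of Nefh with all counts of Ap1b1 was at 0.10, opposite in sign to Nefh alone. Members lower numbered 2 under library totals (Nefm and Ina), 3 under TPM (Nes as well) and 2 under the 1.5-fold rule (Nefm and Ina). Of all genes, 636 were higher and 3629 lower under library totals, 569 and 3917 under TPM, and 3391 and 2953 under the 1.5-fold rule, against 1807 and 1288, and 578 were lower at 10 CPM. The filament-related genes tested outside the 7 members were 15 other filament genes, 3 lamins, 8 linkers and chaperones, and 8 motors and kinases. Of these, 4 were higher and 3 lower, beside 12.8% and 9.1% of all genes. The number lower was 13 under library totals, 13 under TPM, 7 under upper quartile factors and 1 at 10 CPM, where fewer genes are tested. It was 9 under the 1.5-fold rule, with 7 higher. By counts in place of TPM, which does not correct for length, neurofilament shares in homogenate and synaptosome were 31.7% and 41.3% for Nefl, 38.3% and 24.6% for Nefm, 14.7% and 18.3% for Nefh, and 15.3% and 15.7% for Ina. Gfap form shares by TPM were 6.65% and 3.72%, and 17 pairs of members stayed past counting error. No paired analysis was possible because each fraction had 1 library. Leaving out a library was not run for the same reason.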
